A study of Mus musculus with 48 samples.

Results

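Dnmt1, Uhrf1, Dnmt3a, Tet1, Tet2, Tet3, Ezh1 and Ezh2 encode the proteins that copy, place and remove DNA methylation and the catalytic subunits of Polycomb repressive complex 2 (PRC2). They were taken by gene symbol from the count and FPKM tables, as 8 of 53345 gene rows, and all 8 passed the filter on low counts in every fit. The RNA came from spleens of female C57BL/6 mice aged 8 to 12 weeks, collected on day 4 after PBS or 25 µg of a human IL-2-Fc fusion given under the skin on day 0. The fusions were WT IL-2 and the attenuated muteins H16R and 3x, which differ from WT IL-2 by amino acid substitutions. Every mouse, PBS controls included, also received 500 µg of antibody on day -1 and day 0, either an isotype control or one that blocks MHC II (MHC II block).

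This gave 8 groups of 4 regulatory T cell (Treg) libraries and 8 groups of 2 conventional CD4 T cell (Tcon) libraries. The 16 Tcon libraries came from mice that also gave a Treg library. Tregs were the CD4 cells retained on CD25 and Tcons the cells that passed through, so both are fractions sorted on the IL-2 receptor alpha chain and not on Foxp3. All groups are bulk RNA from 1 day and 1 dose, in which fewer cells of a type and less RNA per cell cannot be told apart. Foxp3, the lineage factor of Tregs, lay between 687 and 1249 CPM (a count relative to the library total, scaled by the TMM method) in the 32 Treg libraries and between 46.8 and 183 CPM in the 16 Tcon libraries. Il2ra, which encodes CD25, lay between 306 and 935 CPM in Tregs and between 17.8 and 72.7 CPM in Tcons, so both labels held and neither marker overlapped.

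DNA methylation is copied to the daughter strand at replication by DNMT1, which UHRF1 brings to newly replicated DNA, while DNMT3A places new methyl groups. The TET enzymes oxidise methylcytosine with 2-oxoglutarate as a cosubstrate and so start its removal. EZH2 and EZH1 are alternative catalytic subunits of PRC2, which methylates lysine 27 of histone H3, and EZH2 is typical of dividing cells and EZH1 of resting cells. In Tregs a demethylated intronic element of Foxp3 supports lasting Foxp3 expression, and EZH2 and DNMT1 are known to be needed for Treg function.

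The promoters of Dnmt1, Uhrf1 and Ezh2 are shown because these genes changed in the same direction in several comparisons below and because each holds a letter match to an E2F-like motif, E2F being the factor family of S phase genes. RefSeq promoter windows on GRCm38.p6, from 250 bases before to 50 bases after each annotated start, were searched on both strands for TTTCCCGC, TTTGGCGC, TTTGCCGC and TTTCGCGC. All 8 genes matched a window. Capitals mark the match, which on the strand shown reads in reverse complement for Dnmt1.
Dnmt1, chr9:20952624-20952873, minus strand: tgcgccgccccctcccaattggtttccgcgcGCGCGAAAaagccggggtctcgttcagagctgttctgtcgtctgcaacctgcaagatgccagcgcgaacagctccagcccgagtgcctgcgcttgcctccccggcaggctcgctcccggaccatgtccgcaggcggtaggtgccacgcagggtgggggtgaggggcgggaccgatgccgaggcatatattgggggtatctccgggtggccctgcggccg
Uhrf1, chr17:56304063-56304312, plus strand: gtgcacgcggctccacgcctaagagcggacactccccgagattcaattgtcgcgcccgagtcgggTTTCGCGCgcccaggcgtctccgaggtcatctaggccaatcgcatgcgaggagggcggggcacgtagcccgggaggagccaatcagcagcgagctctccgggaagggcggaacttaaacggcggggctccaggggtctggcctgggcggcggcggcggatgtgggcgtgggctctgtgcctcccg
Ezh2, chr6:47595020-47595269, minus strand: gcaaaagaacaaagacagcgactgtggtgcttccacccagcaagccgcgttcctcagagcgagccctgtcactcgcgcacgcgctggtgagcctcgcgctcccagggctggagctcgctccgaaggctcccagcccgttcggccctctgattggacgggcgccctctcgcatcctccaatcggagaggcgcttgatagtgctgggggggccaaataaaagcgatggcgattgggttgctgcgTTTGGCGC

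Of the 3 Dnmt1 windows, 1 held 2 matches, TTTCGCGC on the opposite strand with its first base at -219 and TTTGGCGC at base 34 from the start, the latter outside the stretch shown. The Dnmt1 windows at 20952930 to 20953229 and 20959839 to 20960138 held no match and lie upstream on this strand. The stretch shown for Dnmt1 thus lies downstream of other annotated starts, and both positions hold for the start of its own window alone. Of the 2 Uhrf1 windows, 1 held a match at -185, and the single Ezh2 window held 1 match at base 4 counted from the start as base 1. None of these letters occurred in the windows of Dnmt3a, Tet1, Tet2, Tet3 or Ezh1. Of all 32851 windows, 2.26% held at least 1 match, and of 27025 genes 2.6% did. The windows shown held 33, 33 and 31 CG dinucleotides, against a median of 7 over all windows. A match is a description of the letters and not a binding site.

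On GRCm38 (GENCODE annotation), Dnmt1 (ENSMUSG00000004099.16) lies on the minus strand of chromosome 9 from 20907209 to 20959888, and Uhrf1 (ENSMUSG00000001228.14) on the plus strand of chromosome 17 from 56303321 to 56323486. Dnmt3a (ENSMUSG00000020661.15) lies on the plus strand of chromosome 12 from 3806007 to 3914443. Tet1 (ENSMUSG00000047146.17) occupies 62804570 to 62908996 on chromosome 10, Tet2 (ENSMUSG00000040943.12) 133463679 to 133545139 on chromosome 3, and Tet3 (ENSMUSG00000034832.15) 83362373 to 83459084 on chromosome 6, all on the minus strand. Ezh1 (ENSMUSG00000006920.14) occupies 101191115 to 101226463 on chromosome 11 and Ezh2 (ENSMUSG00000029687.16) 47530139 to 47595341 on chromosome 6, both on the minus strand. All 8 are protein-coding.

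Library totals ran from 18.28 to 51.95 M expected counts (Treg median 40.7, Tcon median 38.2), and isotype PBS Tregs were the shallowest, at 18.28 to 34.58 M counts. The members were well covered, the lowest being Tet1 at 279 counts in 1 library. The libraries also differed in how long transcripts stood relative to short ones. A length index was therefore computed per library as the median log2 deviation of 466 genes with transcripts of at least 8000 bases minus that of 3548 genes of at most 2000 bases. It was 0.15 to 0.21 in MHC II block PBS Tregs, -0.39 to 0.07 in MHC II block H16R Tregs and -0.33 to 0.06 in MHC II block 3x Tregs, and it reached 0.56 in isotype PBS replicate 4. The transcript lengths implied by the FPKM values were 14425 bases for Tet1, 10041 for Tet3, 9181 for Tet2 and 8382 for Dnmt3a, but 5399 for Dnmt1, 4165 for Ezh1, 3569 for Uhrf1 and 2648 for Ezh2. The long members, the TET genes and Dnmt3a, thus fell in the length class that moved, so values with the index as a covariate are also given for them. The index comes from the same libraries, and under MHC II block neither the mutein Tregs nor the IL-2 Tcons overlapped their PBS libraries in it. There a call kept or lost with the covariate cannot tell transcript length from treatment.

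Of the marker sums for other cells, the summed CPM of 6 B cell genes was 673 in Treg isotype PBS replicate 1 and 620 in Treg MHC II block WT IL-2 replicate 1, against 31.2 to 155 in the other 30 Treg libraries. Plasma cell genes summed to 1696 to 2021 CPM in isotype PBS Tregs and 231 to 329 CPM in isotype 3x Tregs. Among Tcons, isotype WT IL-2 replicate 2 had 1419 CPM of 5 Treg marker genes, against 332 to 712 CPM in the other 15 libraries. B cell genes summed to 867 to 992 CPM in isotype PBS Tcons and 136 to 448 CPM in the other 14, and myeloid genes to 395 to 631 CPM in block WT IL-2 Tcons and 42.5 to 219 CPM in the others. No marker was at 0 in every library of a group. Without the 2 mice of those Treg libraries, 209 of 216 member values kept their direction and side of the threshold, and values without that Tcon library stand with the Tcon results. The part of these cells in other results was not tested.

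Per transcript length (FPKM), the maintenance gene Dnmt1 and the PRC2 genes stood highest in Tregs. The median over 32 Treg libraries was 28.9 FPKM for Dnmt1 (range 25.4 to 43.3), 27.7 for Ezh2 (22.5 to 36.3) and 24.7 for Ezh1 (20.7 to 26.6). It was 18.2 for Dnmt3a (13.8 to 22.9), 14.9 for Uhrf1 (10.3 to 27.4), 13.0 for Tet3 (9.95 to 18.8) and 8.13 for Tet2 (5.79 to 11.8). Tet1 was at 0.91 FPKM (0.54 to 1.65), below every library of every other member. All other neighbours in this order overlapped in range. In Tcons the order differed in that Uhrf1 (20.8 FPKM) and Tet3 (17.0) stood above Dnmt3a (14.6), with Dnmt1 at 37.6, Ezh2 at 27.5, Ezh1 at 24.4, Tet2 at 6.00 and Tet1 at 1.60.

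Ranked by their mean CPM within Tregs, the 8 groups (4 libraries each) fell in a different order for each gene, and most neighbours in these orders overlapped in range. Dnmt1 stood highest in MHC II block 3x Tregs, at 217 ± 18.1 CPM (mean ± SD, n = 4), apart from the next group, block H16R at 177 ± 13.5, and lowest in isotype PBS Tregs at 145 ± 2.87. Uhrf1 likewise stood highest and apart in block 3x Tregs, at 85.1 ± 12.5 CPM, with block H16R next at 61.1 ± 3.93 and isotype H16R lowest at 42.1 ± 3.99. Ezh2 also led in block 3x Tregs, at 88.4 ± 7.07 CPM, overlapping isotype WT IL-2 at 81.5 ± 2.74, and was lowest in block PBS Tregs at 62.7 ± 2.80.

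The genes of new methylation and oxidation stood highest in block PBS Tregs and lowest in a mutein group under block. Dnmt3a was highest in block PBS Tregs (187 ± 5.91 CPM) and lowest in block 3x Tregs (131 ± 15.9). Tet1 was at 16.8 ± 0.97 CPM in block PBS Tregs and at 9.03 ± 1.15 in block 3x Tregs, Tet2 at 84.9 ± 5.88 in block PBS and 63.2 ± 10.4 in block H16R, and Tet3 at 167 ± 6.05 in block PBS and 117 ± 15.1 in block H16R. Ezh1, the other PRC2 catalytic subunit, was highest in isotype H16R Tregs (112 ± 3.53 CPM) and lowest in block 3x Tregs (90.9 ± 5.49). For Dnmt3a, the TET genes, Ezh1 and Ezh2 every pair of neighbours in the order overlapped.

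**Figure D1:**
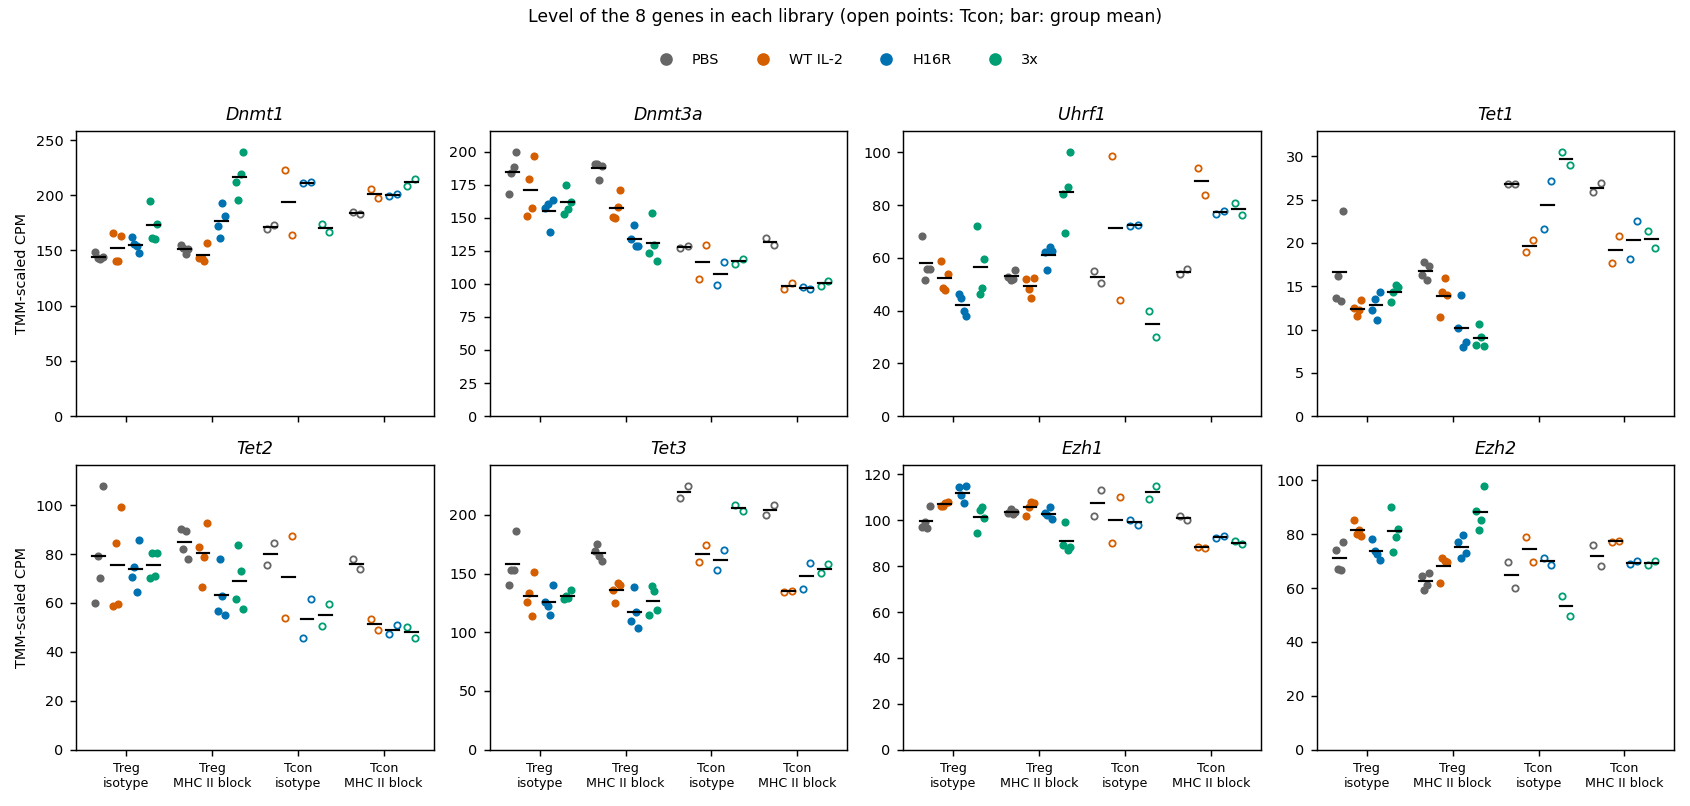
TMM-scaled CPM of each of the 8 genes in every Treg and Tcon library, by treatment group, with a mean line. Among the Treg groups, mean Dnmt1 and Uhrf1 are highest with MHC II block 3x (195 to 239 and 69.5 to 100.1 CPM). Mean Tet1 is lowest there and with MHC II block H16R. In MHC II block WT IL-2 Tcons Uhrf1 is at 83.9 to 94.1 CPM.

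The first question was how each IL-2 molecule changed these genes in Tregs against PBS within an antibody arm. The 3 comparisons of an arm share its 4 PBS libraries. In the isotype arm no log2 difference went beyond 0.46 in size. WT IL-2 changed 4 of the 8 genes (Ezh1 and Ezh2 rose, Tet1 and Tet3 fell), where 52.2% of all 12392 tested genes were called. H16R changed 5 (Ezh1 rose, Uhrf1, Dnmt3a, Tet1 and Tet3 fell), where 64.2% of all genes were called, and 3x changed 4 (Dnmt1 and Ezh2 rose, Dnmt3a and Tet3 fell), where 63.6% were called. These shares lie near those of all genes. All calls are from edgeR's quasi-likelihood test at a Benjamini-Hochberg adjusted p under 0.1.

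Uhrf1, the cofactor of maintenance methylation, was at 68.4, 51.6, 55.8 and 55.8 CPM in isotype PBS Tregs. With H16R it was at 46.2, 44.6, 39.7 and 37.8 CPM. All 4 H16R libraries lay below all 4 PBS libraries. Uhrf1 fell by 0.46 on the log2 scale (SE 0.11, 95% interval -0.70 to -0.23, edgeR adjusted p = 0.001). Plasma cell genes also differed without overlap here (1696 to 2021 CPM with PBS, 366 to 624 CPM with H16R), as did B cell genes (124 to 673 and 34.0 to 43.9 CPM), and their part was not tested. With WT IL-2 the log2 difference was -0.16 (-0.39 to 0.08) and with 3x -0.03 (-0.26 to 0.20), and neither passed.

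Ezh1 rose while its levels spread little. It was at 97.04, 99.2, 96.8 and 106.0 CPM with PBS, at 106.0, 106.3, 107.5 and 108.0 CPM with WT IL-2, and at 114, 111, 107 and 115 CPM with H16R. The H16R libraries lay above every PBS library, and so did those of WT IL-2 by a small margin. The log2 rise was 0.10 (0.02 to 0.18, edgeR adjusted p = 0.039) with WT IL-2 and 0.17 (0.09 to 0.25, adjusted p = 0.00053) with H16R. The WT IL-2 call was lost with scaling by total counts and in limma on log2 FPKM. Ezh2, the PRC2 subunit typical of dividing cells, was at 74.2, 66.9, 66.6 and 77.1 CPM with PBS and at 85.4, 80.1, 81.4 and 79.2 CPM with WT IL-2, which did not overlap. It rose by 0.19 log2 (0.07 to 0.32, edgeR adjusted p = 0.0093) with WT IL-2 and by 0.20 (0.08 to 0.32, adjusted p = 0.0056) with 3x, while with H16R the difference was 0.05 (-0.07 to 0.18). The summed 24 S phase and mitosis genes stood at 1485 to 1698 CPM with PBS, 1678 to 1954 CPM with WT IL-2 and 1788 to 2473 CPM with 3x, and their part in the Ezh2 values was not tested.

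In this arm Dnmt1 passed with 3x alone of the 3 molecules. It rose from 149, 143, 142 and 144 CPM to 194, 161, 161 and 174 CPM, with no overlap. The log2 rise was 0.27 (0.14 to 0.40, edgeR adjusted p = 0.0008). With WT IL-2 it differed by 0.08 (-0.06 to 0.21) and with H16R by 0.10 (-0.03 to 0.23). The S phase and mitosis sums just given did not overlap between 3x and PBS, and their part in the Dnmt1 change was not tested either.

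Tet3 fell with all 3 molecules of the isotype arm, by 0.27 log2 with WT IL-2 (edgeR adjusted p = 0.015), 0.32 with H16R (0.0028) and 0.26 with 3x (0.015). Its PBS libraries were at 140, 153, 153 and 186 CPM and its 3x libraries at 128, 131, 129 and 136 CPM, without overlap. With the length index as a covariate it still fell by 0.18, 0.24 and 0.17, with all 3 adjusted p-values under the threshold. Tet1 fell by 0.41 with WT IL-2 and by 0.37 with H16R (edgeR adjusted p = 0.024 and 0.036), and by 0.25 and 0.23 with the covariate (adjusted p = 0.037 and 0.043). Isotype PBS replicate 4 decided both: it was at 23.7 CPM against 13.3 to 16.1 CPM in the other 3. Without it the Tet1 differences were -0.20 and -0.16 (adjusted p = 0.23 and 0.32), and the H16R call was also lost without H16R replicate 3. Without isotype PBS replicate 4 the Tet3 fall with WT IL-2 was 0.18 log2, just outside the threshold (edgeR adjusted p = 0.105), a call the covariate kept. Dnmt3a fell by 0.25 with H16R (-0.41 to -0.09, edgeR adjusted p = 0.0082) and by 0.18 with 3x (adjusted p = 0.048), the latter call being lost without isotype PBS replicate 4 (-0.14, adjusted p = 0.14) and also without 3x replicate 1 or 3. With the covariate the Dnmt3a falls were 0.19 and 0.12 (adjusted p = 0.0015 and 0.029). Tet2 differed by -0.09 to -0.05 in the 3 comparisons and passed in none, while with the covariate it stood at 0.11, 0.09 and 0.13, the last, for 3x, being called (adjusted p = 0.077).

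Under MHC II block all 8 genes passed with 3x. WT IL-2 changed 3 of the 8 genes (Ezh2 rose, Dnmt3a and Tet3 fell), beside 35.6% of all genes. H16R changed 6 (Dnmt1 and Ezh2 rose, Dnmt3a, Tet1, Tet2 and Tet3 fell), beside 66.5% of all genes, and 3x changed all 8 (Dnmt1, Uhrf1 and Ezh2 rose, the other 5 fell), beside 73% of all genes.

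Uhrf1 was at 52.9, 51.5, 52.1 and 55.5 CPM in MHC II block PBS Tregs. With 3x it was at 84.0, 69.5, 86.7 and 100.1 CPM. Every 3x library lay above every PBS library, and above every other Treg library but isotype 3x replicate 1. Uhrf1 rose 1.59-fold (log2 0.67, SE 0.11, 0.44 to 0.90, edgeR adjusted p = 6.4e-06). With H16R it was at 62.2, 55.3, 64.2 and 62.5 CPM, a log2 difference of 0.20 (-0.03 to 0.43, adjusted p = 0.12).

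Dnmt1 was at 154, 152, 147 and 152 CPM with PBS. It was at 172, 161, 193 and 181 CPM with H16R, and at 212, 195, 220 and 239 CPM with 3x. Neither mutein group overlapped PBS, and the lowest 3x library lay above the highest H16R library. Dnmt1 rose 1.17-fold with H16R (log2 0.22, 0.09 to 0.35, edgeR adjusted p = 0.0038) and 1.42-fold with 3x (log2 0.51, 0.38 to 0.64, adjusted p = 6.5e-08).

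Ezh2 was at 64.5, 59.4, 61.3 and 65.5 CPM with PBS, at 77.0, 71.3, 79.9 and 73.1 CPM with H16R, and at 88.7, 81.5, 85.2 and 98.0 CPM with 3x. Both mutein groups lay above all PBS libraries. Ezh2 rose by 0.26 log2 with H16R (0.14 to 0.38, edgeR adjusted p = 0.00042) and by 0.48 with 3x (0.36 to 0.61, adjusted p = 3.9e-08). With WT IL-2 it rose by 0.14 (0.02 to 0.26, adjusted p = 0.074), a call that 8 of 32 fits with a library left out lost (log2 0.12 to 0.18). Ezh1, the alternative catalytic subunit, fell with 3x, from 102.9 to 105.1 CPM in the PBS libraries to 87.2 to 99.03 CPM, by 0.20 log2 (-0.28 to -0.12, edgeR adjusted p = 6e-05). The 24 S phase and mitosis genes summed to 1522 to 1573 CPM with PBS, 1968 to 2237 CPM with H16R and 2387 to 3182 CPM with 3x, and their part in the Dnmt1, Uhrf1 and Ezh2 values was not tested. In the same order Treg marker genes summed to 2775 to 2986, 3735 to 4114 and 3985 to 4547 CPM. CD4 T cell genes summed to 1519 to 1647, 2049 to 2179 and 1872 to 2022 CPM. Myeloid genes summed to 19.9 to 32.3, 40.3 to 71.7 and 55.8 to 74.7 CPM. CD8 T and NK cell genes summed to 27.4 to 33.2, 34.9 to 43.6 and 35.2 to 62.2 CPM. No mutein group overlapped PBS in these sums, and their part in the values of the 8 genes was not tested.

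Tet1, the rarest TET gene here, was at 16.3, 17.8, 15.7 and 17.4 CPM with PBS under MHC II block. It was at 10.2, 13.9, 7.95 and 8.60 CPM with H16R, and at 8.24, 10.6, 9.14 and 8.11 CPM with 3x. No H16R or 3x library reached the PBS libraries. Tet1 fell by 0.74 log2 with H16R (SE 0.15, edgeR adjusted p = 0.00012) and by 0.91 with 3x (SE 0.15, adjusted p = 5e-06). With the length index as a covariate the falls were 0.35 (adjusted p = 0.013) and 0.54 (adjusted p = 0.00017).

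Dnmt3a, which places new methylation, was at 191, 191, 179 and 189 CPM with PBS. It was at 134, 144, 129 and 128 CPM with H16R, and at 123, 153, 129 and 117 CPM with 3x. Both groups lay below PBS without overlap. The falls were 0.49 and 0.53 log2 (SE 0.08 for both, edgeR adjusted p = 5.8e-06 and 1.1e-06), and 0.26 and 0.32 with the length index as a covariate (adjusted p = 0.00044 and 1.6e-05). WT IL-2 also lowered Dnmt3a, by 0.23 (adjusted p = 0.029), and here the covariate left the fall at 0.20.

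Tet3 fell with all 3 molecules, by 0.28 (WT IL-2), 0.52 (H16R) and 0.41 log2 (3x) (edgeR adjusted p = 0.018, 1.5e-05 and 0.00021), and by 0.25, 0.24 and 0.15 with the covariate, past the threshold each time. Tet2 was the exception among the TET genes. It fell by 0.43 with H16R (edgeR adjusted p = 0.024) and by 0.31 with 3x (adjusted p = 0.088). With the length index as a covariate the signs turned, to 0.11 (adjusted p = 0.23) and 0.18 (adjusted p = 0.028). The direction of Tet2 in these comparisons is therefore not settled by these libraries. Its 3x call was also lost in 10 of 32 fits with a library left out (log2 -0.42 to -0.22).

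**Figure D2:**
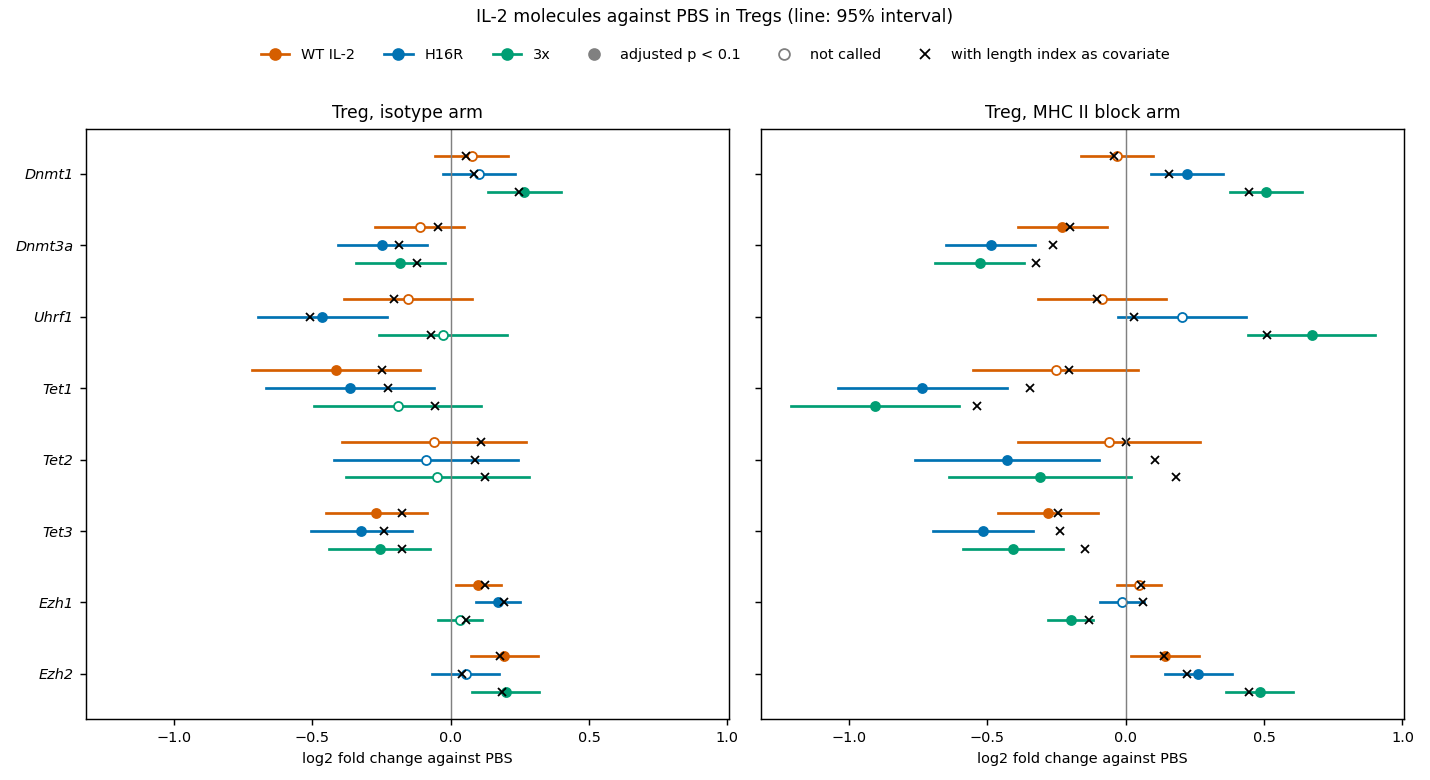
Log2 difference of each IL-2 molecule against PBS in Tregs, per gene and antibody arm, with 95% intervals from the edgeR fit over 32 libraries. Under MHC II block 3x, Dnmt1, Uhrf1 and Ezh2 lie above 0 (0.51, 0.67 and 0.48) and Tet1 lies lowest (-0.91).

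**Figure D3:**
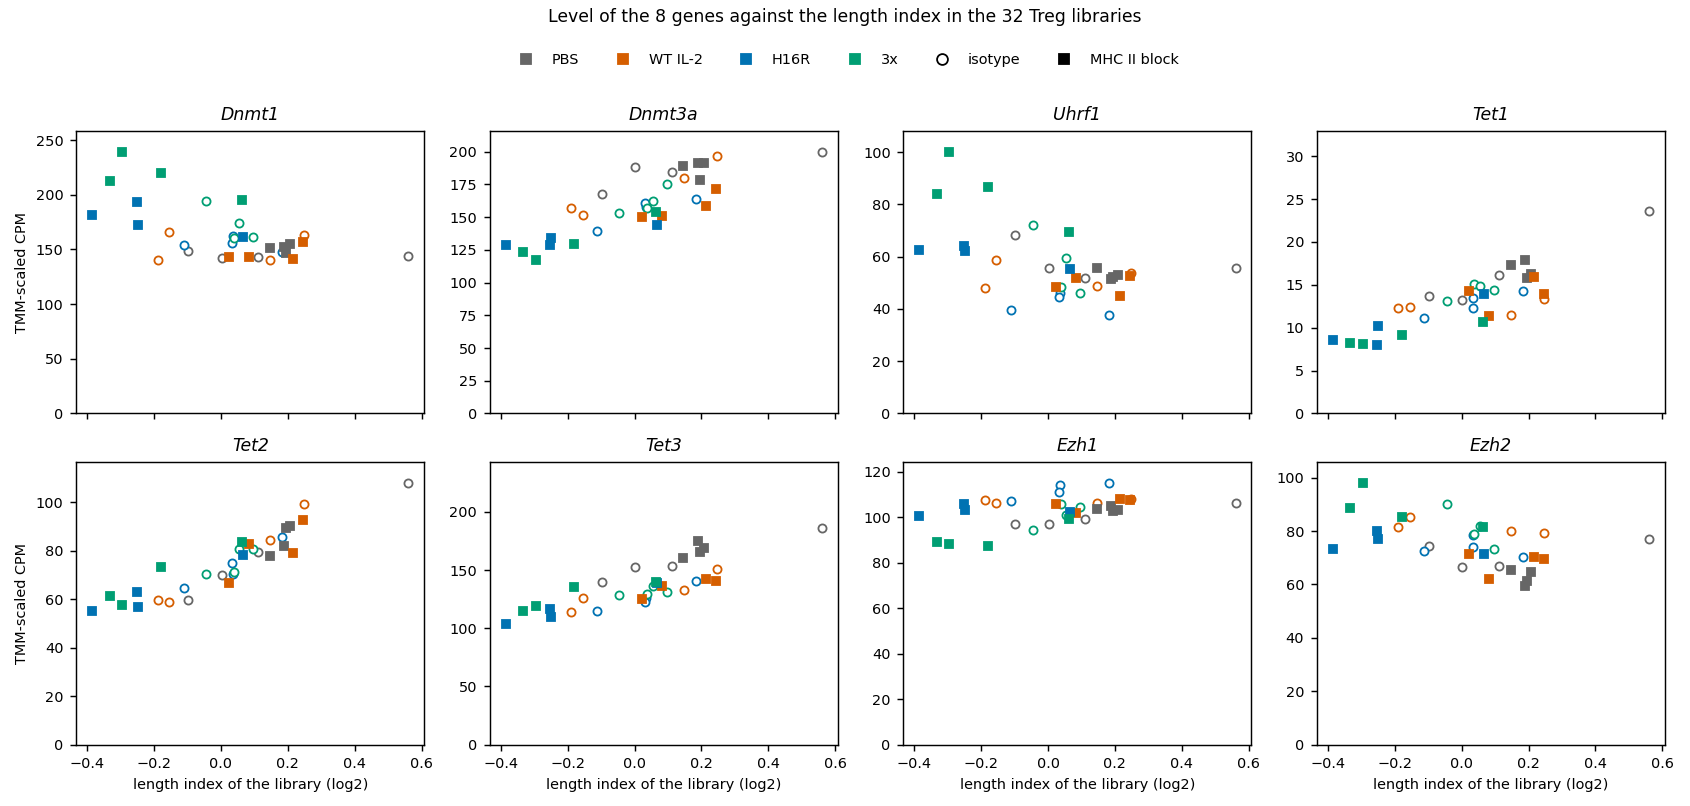
CPM of the members against the length index of each Treg library, coloured by treatment. Tet2 rises with the index from 55.2 CPM to 108 CPM, and the MHC II block 3x and H16R libraries hold most of the low indices, down to -0.39.

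The next question was whether the response to a molecule differed between the arms. The interaction, the log2 change against PBS under MHC II block minus that under isotype, was tested for each molecule. For WT IL-2 it passed in 0 of the 8 genes by edgeR's quasi-likelihood test, beside 19.7% of all genes, and the adjusted p-values ran from 0.48 up to 1. For H16R it passed in 2, beside 19.1% of all genes. Uhrf1 differed by 0.67 (SE 0.16, 0.34 to 0.99, edgeR adjusted p = 0.0086), having fallen under isotype and stood at 0.20 under block, and Ezh1 differed by -0.18 (-0.30 to -0.07, adjusted p = 0.031).

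For 3x the interaction passed in 6 of the 8, beside 39% of all genes. It was positive for Uhrf1 (0.70, 0.38 to 1.03, edgeR adjusted p = 0.0017), Ezh2 (0.29, 0.12 to 0.46, adjusted p = 0.011) and Dnmt1 (0.24, 0.06 to 0.43, adjusted p = 0.043). It was negative for Tet1 (-0.72, -1.14 to -0.29, adjusted p = 0.011), Dnmt3a (-0.35, -0.57 to -0.12, adjusted p = 0.019) and Ezh1 (-0.23, -0.35 to -0.12, adjusted p = 0.0025). With the length index as a covariate Tet1 was at -0.48 (adjusted p = 0.011) and Dnmt3a at -0.20 (adjusted p = 0.033). Dnmt1 was then at 0.20 and no longer passed (adjusted p = 0.101), and its call was also lost without MHC II block 3x replicate 4 (log2 0.18, adjusted p = 0.15). The median 3x interaction of the 24 S phase and mitosis genes was 0.54, with 21 positive calls and 0 negative, and their part in the Uhrf1, Ezh2 and Dnmt1 values was not tested. Tet2 and Tet3 had interactions of -0.26 (-0.73 to 0.20) and -0.15 (-0.41 to 0.11), which did not pass.

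MHC II block was also set against isotype within each treatment. With PBS and with WT IL-2 Ezh2 was the single gene called of 8, beside 14.1% and 33.6% of all genes. Under block it fell by 0.19 log2 (edgeR adjusted p = 0.049) and fell by 0.24 (adjusted p = 0.0032). The PBS call was lost without isotype PBS replicate 1 or 4 or block PBS replicate 2 or 3 (log2 -0.22 to -0.15 over all libraries left out), and in the fit without the 2 mice richest in B cell transcripts (-0.16, adjusted p = 0.104). With WT IL-2 other sums also differed between the arms without overlap: Treg markers at 2409 to 3386 CPM under block and 3921 to 4453 CPM under isotype, plasma cell genes at 1757 to 3469 and 837 to 1000 CPM, and CD8 T and NK cell genes at 43.6 to 89.7 and 23.7 to 31.1 CPM. Nor did myeloid genes (38.2 to 561 CPM under block, 19.7 to 34.4 under isotype), dendritic cell genes (20.3 to 81.0 and 7.39 to 10.6 CPM) or CD4 T cell genes (1338.5 to 1769 and 1966 to 2134 CPM) overlap. The part of these sums in the Ezh2 value was not tested. With H16R, 5 genes were called, beside 30.7% of all genes, and with 3x 5, beside 54.1%.

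With H16R, Uhrf1 was higher under block (37.8 to 46.2 CPM under isotype, 55.3 to 64.2 CPM under block, no overlap) by 0.53 log2 (0.30 to 0.76, edgeR adjusted p = 0.0018) and Dnmt1 by 0.18 (adjusted p = 0.038). Ezh1 fell by 0.13 without overlap (adjusted p = 0.019). The S phase and mitosis genes summed to 1565 to 1796 CPM under isotype and 1968 to 2237 CPM under block with H16R, and plasma cell genes to 366 to 624 and 782 to 1513 CPM, neither overlapping. Their part in these values was not tested. Dnmt3a fell by 0.22 and Tet1 fell by 0.35 (edgeR adjusted p = 0.043 and 0.091). The Dnmt1, Dnmt3a and Tet1 calls were lost with the length index as a covariate, at 0.14, -0.09 and -0.12 (adjusted p = 0.14, 0.27 and 0.46). With single libraries left out Dnmt1 was at 0.14 to 0.22 (lost without isotype H16R replicate 4 or block H16R replicate 3), Dnmt3a at -0.27 to -0.20 (lost without these or block H16R replicate 4) and Tet1 at -0.54 to -0.25 (lost in 13 of 32 fits). With 3x, Uhrf1 was higher under block by 0.56 (adjusted p = 0.00017) and Dnmt1 by 0.30 (adjusted p = 0.00031). Tet1 fell by 0.69 (adjusted p = 0.00041), Dnmt3a fell by 0.33 (adjusted p = 0.0012) and Ezh1 fell by 0.18 (adjusted p = 0.00053). With the covariate Tet1 was at -0.48 and Dnmt3a at -0.21, both past the threshold. Plasma cell genes summed to 835 to 1648 CPM in block 3x Tregs, above all isotype 3x libraries. Myeloid genes (55.8 to 74.7 CPM under block, 20.9 to 26.4 under isotype) and dendritic cell genes (18.6 to 26.2 and 5.14 to 7.27 CPM) did not overlap either. Nor did CD8 T and NK cell genes (35.2 to 62.2 and 19.9 to 26.0 CPM) or B cell genes (59.3 to 129 and 31.2 to 42.1 CPM). The part of these sums in the 3x values was not tested.

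The 3 molecules share the IL-2-Fc frame and differ by the substitutions that weaken H16R and 3x. They were compared with each other at the same dose and day, in 6 pairs of 8 genes, with p-values adjusted over all genes tested in each pair. In the isotype arm the members differed little. H16R against WT IL-2 gave 1 call of 8 (18.6% of all genes), for Uhrf1 (log2 -0.31, -0.54 to -0.08, edgeR adjusted p = 0.071). That call was lost without WT IL-2 replicate 1 or 3b or H16R replicate 3 or 4 (-0.36 to -0.25). 3x against WT IL-2 gave 1 (34.7% of all genes), Dnmt1 higher by 0.19 (0.06 to 0.32, adjusted p = 0.025), and lost without WT IL-2 replicate 3a or 3x replicate 1 (0.13 to 0.23). 3x against H16R gave 2 (11.5% of all genes), Uhrf1 higher by 0.44 (0.21 to 0.67, adjusted p = 0.017) and Ezh1 lower (-0.14, -0.22 to -0.06, adjusted p = 0.029). Without 3x replicate 1 neither passed (Uhrf1 0.30, adjusted p = 0.13, and Ezh1 -0.10, adjusted p = 0.17), and the Ezh1 call was also lost without H16R replicate 4. No TET gene passed in these 3 pairs, with intervals that reached from -0.25 to 0.52 for Tet1, from -0.36 to 0.34 for Tet2 and from -0.23 to 0.25 for Tet3. In a fit of the 2 groups alone, Tet1 was called higher with 3x than with WT IL-2 (0.21, 0.06 to 0.36, adjusted p = 0.037).

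Under MHC II block, H16R against WT IL-2 gave 7 calls of 8 (57.5% of all genes) and 3x against WT IL-2 6 (68.7%). Dnmt1 was higher than with WT IL-2 by 0.25 with H16R (0.12 to 0.38, edgeR adjusted p = 0.0018) and by 0.54 with 3x (0.41 to 0.67, adjusted p = 5.4e-08). Uhrf1 was higher by 0.29 (adjusted p = 0.036) and by 0.76 (0.53 to 0.99, adjusted p = 1.9e-06), and Ezh2 by 0.12 (adjusted p = 0.09) and by 0.34 (adjusted p = 1.6e-05). Tet1 was lower, at -0.48 (adjusted p = 0.009) and -0.65 (adjusted p = 0.00044), the latter at -0.33 with the length index as a covariate (adjusted p = 0.011). Plasma cell genes summed to 1757 to 3469 CPM with WT IL-2 under block and to 782 to 1648 CPM with the muteins, without overlap. The 24 S phase and mitosis genes summed to 1551 to 1743 CPM with WT IL-2 and to 1968 to 3182 CPM with the muteins, and the part of either in these calls was not tested. With the covariate 1 of the 7 H16R calls was left, Dnmt1 at 0.20 (adjusted p = 0.034), while Uhrf1 stood at 0.14, Ezh2 at 0.08, Dnmt3a at -0.06, Tet1 at -0.14, Tet2 at 0.10 and Tet3 at 0.0075. Of the H16R calls, Ezh2 (0.09 to 0.15 with a library left out) and Tet2 (-0.49 to -0.28) were each lost without WT IL-2 replicate 1, the library rich in B cell and myeloid transcripts, and without 3 other libraries. Uhrf1 was lost without WT IL-2 replicate 3 (0.24, adjusted p = 0.11) and Tet3 without H16R replicate 4 (-0.18, adjusted p = 0.13).

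3x against H16R under MHC II block separated the 2 muteins in 4 genes of 8, beside 25.2% of all genes. Uhrf1 was higher with 3x by 0.47 (0.24 to 0.70, edgeR adjusted p = 0.0038), Dnmt1 by 0.29 (0.16 to 0.42, adjusted p = 0.0022) and Ezh2 by 0.22 (0.10 to 0.34, adjusted p = 0.0085). Ezh1 was lower (-0.19, -0.27 to -0.11, adjusted p = 0.0015). None of these 4 overlapped between the groups, and the length index differed little between them, with medians of -0.24 and -0.25. The S phase and mitosis sum did not overlap either (2387 to 3182 CPM with 3x, 1968 to 2237 CPM with H16R), and its part in these values was not tested. Dnmt3a (-0.04, -0.20 to 0.12), Tet1 (-0.17, -0.48 to 0.14), Tet2 (0.12, -0.21 to 0.45) and Tet3 (0.11, -0.07 to 0.29) did not pass, though Tet3 did with the length index as a covariate (0.09, adjusted p = 0.09).

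Treg and Tcon libraries of the same 16 mice were then compared, with the mouse as a block. Transcripts of other cells also differed between the fractions. By group medians, Tcons held 52.5 to 179.5 CPM of CD8 T and NK cell genes (Tregs 20.4 to 52.02), 30.5 to 175 CPM of dendritic cell genes (Tregs 4.68 to 35.5) and 152 to 930 CPM of B cell genes (Tregs 35.1 to 149), and their part in the values that follow was not tested. Of the 8 genes 6 differed, beside 75.9% of all 12844 genes tested. Dnmt3a was 1.45-fold higher in Tregs (log2 0.53, SE 0.03, edgeR adjusted p = 3.4e-12) and was higher in 16 of 16 mice, by 0.32 to 0.66 log2. Tet1 was lower in Tregs (log2 -0.82, SE 0.06, adjusted p = 3.7e-10), in 16 of 16 mice, between -1.38 and -0.54. Tet3 was lower (-0.34, adjusted p = 6.2e-06, 15 of 16 mice) and Tet2 higher by 0.32 (adjusted p = 0.00076, 13 of 16 mice), so the 3 TET genes did not move together between the cell types. With the length index as a covariate these 4 genes kept their sign and call, at 0.51, -0.85, -0.39 and 0.25.

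Dnmt1 was lower in Tregs (-0.23, SE 0.04, edgeR adjusted p = 0.0001), in 14 of 16 mice, and the 2 exceptions had received 3x. Ezh2 was higher by 0.14 (adjusted p = 0.056, 12 of 16 mice), a call lost in 8 of 32 fits with a library left out (0.10 to 0.16). The 4 exceptions were the block PBS and block WT IL-2 mice (-0.32 to -0.12), while all 8 isotype mice were above 0. Ezh1 (0.07, -0.01 to 0.16) and Uhrf1 (-0.16, -0.41 to 0.08) did not pass, and Uhrf1 ranged from -0.86 to 0.86 within mice. Without Tcon isotype WT IL-2 replicate 2, the library rich in Treg markers, Ezh1 was called at 0.08 (adjusted p = 0.095).

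**Figure D4:**
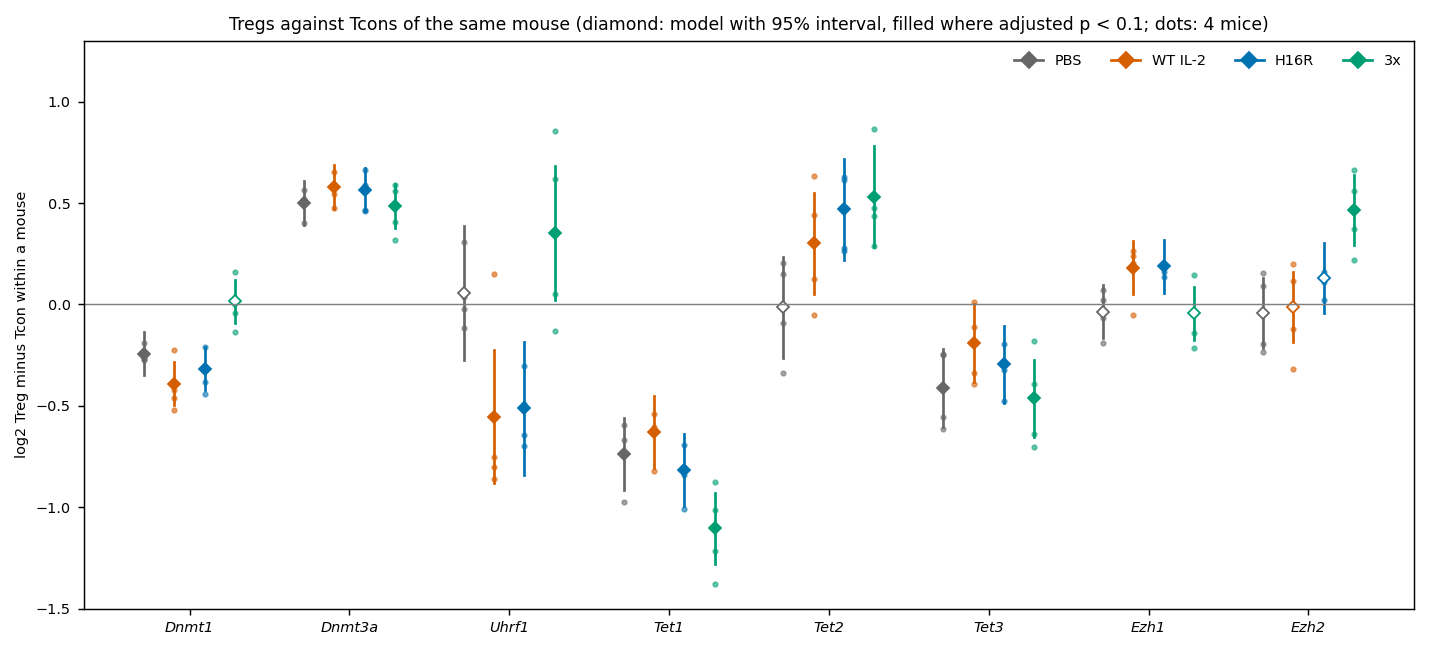
Log2 ratio of Treg to Tcon within each of 16 mice, per gene and treatment. Diamonds mark the edgeR estimate for each treatment with its 95% interval, filled where the adjusted p passed the threshold. Dnmt3a lies above 0 and Tet1 below 0 in all 16 mice. For Dnmt1, Uhrf1 and Ezh2 the median over mice, which is not drawn, is highest with 3x. With 3x, Uhrf1 is at 0.86 and 0.62 under isotype and at 0.05 and -0.13 under MHC II block.

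Within treatments (4 mice each, both arms pooled) the difference between cell types depended on the molecule for some genes. With PBS 4 of the 8 genes differed (50.4% of all genes), after WT IL-2 7 did (63.5%), after H16R also 7 (70.4%) and after 3x 6 (71.2%). Of the WT IL-2 calls, Tet2, Tet3 and Ezh1 (0.30, -0.19 and 0.18) were lost in 4, 5 and 2 of 32 fits with a library left out, all of mice given WT IL-2 (0.17 to 0.42, -0.28 to -0.12 and 0.15 to 0.26). Uhrf1 was lower in Tregs with WT IL-2 and H16R (-0.55 and -0.51, edgeR adjusted p = 0.0068 and 0.0086). With 3x it was higher by 0.35 (adjusted p = 0.056), a call lost without either library of isotype 3x mouse 1 or 2 (0.19 to 0.51). The arms stood apart here: Uhrf1 was higher in Tregs by 0.86 and 0.62 log2 in the 2 isotype 3x mice and stood at 0.05 and -0.13 in the 2 block 3x mice, a difference that was not tested. Ezh2 was higher in Tregs by 0.47 with 3x (adjusted p = 0.00011) and at -0.04 with PBS, which pools 0.09 and 0.15 in the 2 isotype mice with -0.23 and -0.20 in the 2 block mice.

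Testing the change of that difference against PBS gave 0 calls of 8 for WT IL-2 by edgeR (12.2% of all genes, smallest adjusted p = 0.1 for Uhrf1), 3 for H16R (40.6%) and 4 for 3x (46.5%). The WT IL-2 count rests on Tcon isotype WT IL-2 replicate 2. Without it 4 of the 8 passed: Uhrf1 (-0.84, edgeR adjusted p = 0.012), Ezh1 (0.29, 0.029), Dnmt1 (-0.20, 0.054) and Tet2 (0.43, 0.086). With 3x the Treg minus Tcon difference was higher than with PBS for Ezh2 (0.51, 0.26 to 0.75, edgeR adjusted p = 0.0032), Tet2 (0.54, 0.19 to 0.90, adjusted p = 0.017) and Dnmt1 (0.26, 0.11 to 0.41, adjusted p = 0.0094), and lower for Tet1 (-0.37, -0.62 to -0.12, adjusted p = 0.022). These 4 also passed with the length index as a covariate. With H16R it was lower for Uhrf1 (-0.57, adjusted p = 0.059) and higher for Tet2 (0.48, adjusted p = 0.037) and Ezh1 (0.23, adjusted p = 0.058), and none of the 3 passed with the covariate (-0.22, 0.17 and 0.10). They also rest on single mice: with a library left out they ran from -0.64 to -0.48, from 0.37 to 0.56 and from 0.17 to 0.27, and were lost in 6, 4 and 8 of 32 fits, each time including the fits without isotype PBS replicate 1 or isotype H16R replicate 1.

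In Tcons alone, over both arms, WT IL-2 changed 4 genes (27.2% of all 12526 genes), H16R 4 (31.1%) and 3x 3 (9.88%). Tet3 fell with each molecule, by 0.50, 0.46 and 0.25 log2 (edgeR adjusted p = 0.0015, 0.0011 and 0.06). Dnmt3a fell by 0.28, 0.35 and 0.26 (adjusted p = 0.024, 0.0069 and 0.058) and Tet2 by 0.37, 0.61 and 0.60 (adjusted p = 0.077, 0.0095 and 0.026). Tet1 fell with WT IL-2 by 0.45 (adjusted p = 0.021), and Dnmt1 rose with H16R by 0.21 (adjusted p = 0.087). Beside this the S phase and mitosis genes summed to 2054 to 2223 CPM with H16R and 1504 to 1697 CPM with PBS, and plasma cell genes to 1791 to 1996 and 819 to 1350 CPM, neither overlapping, and their part was not tested. With 3x these values pool arms that stood apart. Mean Tet3 was 206 CPM with 3x and 220 with PBS under isotype, but 154 and 204 CPM under block. Uhrf1 was lower with 3x than with PBS under isotype (30.1 to 39.9 against 50.4 to 55.1 CPM) and higher under block (76.1 to 80.9 against 53.7 to 55.7 CPM). Tet1 was higher with 3x under isotype (29.0 to 30.5 against 26.8 to 26.9 CPM) and lower under block (19.4 to 21.4 against 25.9 to 26.9 CPM). The S phase and mitosis sum went the way of Uhrf1, at 1164 to 1413 CPM with 3x and 1504 to 1577 with PBS under isotype, and at 2096 to 2157 and 1695 to 1697 CPM under block. Myeloid genes under block summed to 218 to 219 CPM with 3x and 42.5 to 44.2 CPM with PBS, and the part of either was not tested. The difference between the arms was not tested in Tcons. The length index lay at 0.15 to 0.27 in PBS Tcons and from -0.39 to 0.28 in IL-2 Tcons, and with it as a covariate 3 of 24 tests passed in place of 11. Tet3 was then at -0.30 (adjusted p = 0.032), -0.23 (adjusted p = 0.074) and -0.06, Dnmt3a at -0.06, -0.09 and -0.05, Tet2 at -0.0022, -0.16 and -0.21, and Tet1 with WT IL-2 at -0.19, and Uhrf1 with 3x was called at -0.74 (adjusted p = 0.078). With a library left out, 4 of the 11 calls were lost at least once: Tet2 with WT IL-2 (-0.56 to -0.29), Dnmt1 with H16R (0.18 to 0.25), and Dnmt3a and Tet3 with 3x (-0.32 to -0.22 and -0.31 to -0.20), the last pair without any library of block PBS or block 3x.

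Uhrf1 in Tcons with WT IL-2 was at 98.7 and 43.9 CPM under isotype and at 94.1 and 83.9 CPM under block, against 50.4 to 55.7 CPM in the 4 PBS libraries. The low library is isotype WT IL-2 replicate 2, the one rich in Treg markers. The high library of that group, replicate 1, had the highest erythroid sum of all Tcons (220 CPM, against 13.7 in replicate 2), more plasma cell transcripts (2900 against 1533 CPM) and more of the S phase and mitosis genes (2610 against 1583 CPM), and their part was not tested. The log2 difference was 0.56 (0.04 to 1.07, edgeR adjusted p = 0.12). Without replicate 2, WT IL-2 changed 7 of the 8 genes in Tcons in place of 4, Uhrf1 being called at 0.74 (0.26 to 1.21, adjusted p = 0.025), Dnmt1 at 0.22 (adjusted p = 0.045) and Ezh1 at -0.20 (adjusted p = 0.019). MHC II block against isotype over all treatments changed 5 genes in Tcons (28.9% of all genes): Ezh2 rose by 0.14, Tet3 fell by 0.24, Ezh1 fell by 0.17, Tet1 fell by 0.21 and Dnmt3a fell by 0.14. These values pool 4 treatments that did not move alike. Mean Tet1 was 26.8 CPM under isotype and 26.4 under block with PBS, 19.7 and 19.2 with WT IL-2, 24.4 and 20.4 with H16R, and 29.7 and 20.4 with 3x. Mean Dnmt3a was 128 and 132 CPM with PBS, and mean Ezh2 69.9 and 69.5 CPM with H16R. None passed with the length index as a covariate, and the Ezh2, Tet1 and Dnmt3a calls were each lost in 8 to 10 of 16 fits with a library left out.

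Around the 8 genes, lists of partner genes were counted in the same fits, with MHC II block 3x against PBS as the comparison with most member calls. Over all genes 73% were called there, with a median log2 difference of -0.04. The length index did not overlap there either, at 0.15 to 0.21 with PBS and -0.33 to 0.06 with 3x. The list values here and below are given without it as a covariate. Of 23 tested DNA methylation and demethylation partners, 9 rose and 12 fell (median -0.15). Gadd45g, of a family linked to active demethylation, rose by 0.80 (edgeR adjusted p = 1.6e-07), and Cxxc5, a CXXC-domain DNA-binding protein, fell by 1.01 (adjusted p = 1.1e-07).

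Of the 12 PRC2 partners 3 rose and 5 fell (median -0.02). Phf19 rose by 0.45 and Phf1 fell by 0.63 (edgeR adjusted p = 6.8e-05 and 4.9e-09), both being Polycomb-like accessory subunits of PRC2. Of 23 PRC1 subunits, which act on chromatin marked by PRC2, 3 rose and 15 fell (median -0.24), with Bcorl1 up by 0.29 and Scmh1 at -1.05 (adjusted p = 0.0051 and 1.4e-07). Of 9 tested H3K27 demethylase and BAP1 complex genes 2 rose and 5 fell (median -0.22), and Kdm6b, a demethylase that opposes PRC2, fell by 0.91 (adjusted p = 6.6e-09).

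Of 18 genes of methyl donor and 2-oxoglutarate supply 6 rose and 9 fell (median -0.10). Ahcy, which clears the product that inhibits methyltransferases, rose by 0.82 and Mthfd1, of the folate cycle, fell by 0.78 (edgeR adjusted p = 3.5e-09 and 1.7e-10). Of 24 S phase and mitosis genes 20 rose and 0 fell (median 0.69), with Ccnb2, a mitotic cyclin, up by 2.03 (adjusted p = 1.1e-10). Under isotype, WT IL-2 against PBS gave 12 up and 4 down of these 24 (median 0.24), beside 52.2% of all genes called, 3x gave 12 up and 5 down (median 0.16), beside 63.6%, and H16R gave 11 up and 10 down (median 0.07), beside 64.2%, including E2f2 at 0.99 and Mcm5 at -0.59 (edgeR adjusted p = 2.5e-10 and 1.9e-05).

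In the interaction of 3x with MHC II block, Hells, a chromatin remodeller needed for DNA methylation, differed by 0.79 (edgeR adjusted p = 2.5e-05), near the 0.70 of Uhrf1, and Ahcy by 0.78, while Cbx7 of PRC1 differed by -0.56. Between Tregs and Tcons, 11 DNA methylation partners were higher and 7 lower in Tregs of 23 tested (median 0.07), a share of 78.3% beside the 75.9% of all genes. Gadd45b was higher by 1.48 and Cxxc5 lower, at -0.81 (adjusted p = 1.6e-11 and 1.6e-06). Of the BAP1 and H3K27 demethylase list 6 were higher and 2 lower of 9 (88.9%, median 0.30), with Asxl1 higher by 0.87. Of the methyl donor and 2-oxoglutarate list only the gene with the largest fall is given here. It is Idh2, an enzyme that makes 2-oxoglutarate, lower at -1.00 (edgeR adjusted p = 1.1e-12).

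**Figure D5:**
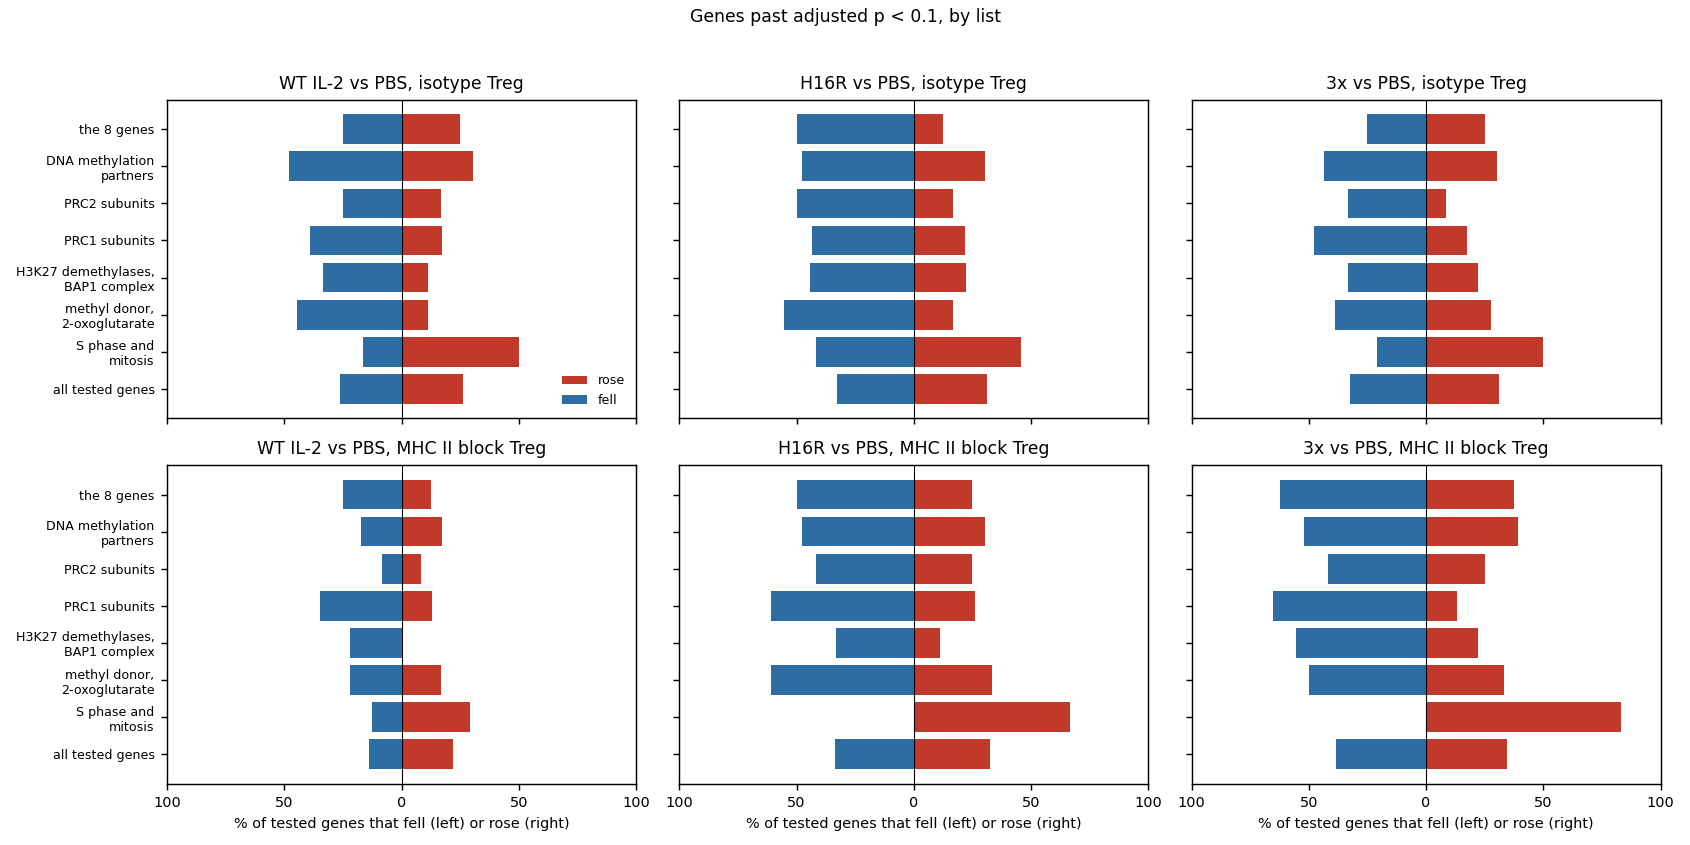
Percentage of the tested genes of each partner list called higher (bars to the right) or lower (bars to the left) in Tregs. The comparisons are each IL-2 molecule against PBS in both antibody arms. The members and all tested genes are shown in the same way. For 3x against PBS under MHC II block, 20 of 24 S phase and mitosis genes rose and 0 fell. Of 23 PRC1 subunits 3 rose and 15 fell.

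Across the 32 Treg libraries the members fell into patterns that can be described by the Pearson correlation of log2 CPM, where all points share the 8 groups and the length index. Dnmt1 and Uhrf1 moved together (r = 0.82), and Uhrf1 and Ezh1 moved against each other (r = -0.89). Dnmt3a went with Tet1 (r = 0.85) and Tet3 (r = 0.82), and Tet2 with Tet3 (r = 0.80). The genes most like Uhrf1 were Rrm1 (r = 0.98), Chaf1a (0.96) and Mybl2 (0.94), and those most like Dnmt1 were Ncapd2 (0.97), Tacc3 (0.96) and Asf1b (0.96).

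Ezh2 was most like Kpna3 (r = 0.90), Slbp (0.89) and Dbf4 (0.87), and Ezh1 like Phf21a (0.89), Mprip (0.89) and H2-Q6 (0.87). Dnmt3a was most like Setd1a (0.96), Ttll4 (0.95) and Cdon (0.95), and Tet1 like Map4k3 (0.94), Zeb1 (0.93) and Pogz (0.93). The genes most like Tet2 were Nsd1 (0.96), Trip11 and Apc (0.95 each), and those most like Tet3 were Pou2f1 (0.93), Mdn1 and Kmt2a (0.92 each). The 3 nearest genes of Tet2 have implied transcript lengths of 9967 to 10124 bases and those of Tet3 of 11073 to 18140 bases. Those of Dnmt3a have 6003 to 8682 bases and those of Tet1, the longest member, 4265 to 5860 bases, while those of Dnmt1 have 1805 to 4673 bases.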

How the data were processed

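RNA was measured in 32 Treg and 16 Tcon libraries. Per the methods and labels the authors sequenced stranded mRNA, aligned to GRCm38 with OSA and quantified with RSEM. They deposited expected counts per gene, and FPKM, which divide by transcript length and depth. Tables of the authors' own comparisons (log2 fold changes and p-values) were not used. Expected counts were rounded to whole numbers, and 6915 genes had no value in every library.

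Genes were kept if protein-coding and above 0.5 CPM in at least 4 libraries. edgeR 4.0.16 (R 4.3.3) quasi-likelihood tests with TMM scaling were fitted to all 12392 genes in Tregs, 12844 in the Treg and Tcon pairs and 12526 in Tcons, with Benjamini-Hochberg adjustment and a threshold of 0.1, the level the study used (with DESeq2 1.30.1). Intervals are 95%. Fits were tested on simulated counts. Groups came from the labels, and 2 Treg isotype WT IL-2 libraries with the same label were counted as separate mice, replicates 3a and 3b. Treg and Tcon libraries were paired by the mouse code in the labels. Replicate numbers did not pair Treg groups (median correlation of deviations 0.025 for same and -0.0092 for different numbers). No 2 libraries of a group agreed within sampling noise. Each library came from 1 mouse handled as a sample of its own, so p-values measure the spread between mice.

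The members and the partner lists were chosen with earlier results of these data known. In each list the genes with the largest rise and fall past the threshold could be named, and the 3 genes most correlated with each member. Mbd5 and Mbd6 stand in both the DNA methylation and the BAP1 lists. Alternatives were DESeq2 1.42.0, total-count scaling (which shifted the median of all genes by at most 0.11 log2), other filters, limma 3.58.1 on log2(FPKM + 1) and log2(FPKM + 0.1), a replicate block, only the groups compared, and each library left out. The length index as a covariate and the fit without the 2 mice richest in B cell transcripts were added after seeing the data.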

Additional observations from a re-analysis of the deposited data

Results flagged for a closer look

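Among 64 sets of 4 Treg libraries (8 genes in 8 groups), 2 held a library set apart from the rest by Dixon's criterion, which chance meets in about 1 of 20 sets. Dnmt1 was at 156.5 CPM in the highest of 4 libraries given WT IL-2 with MHC II block (ratio 0.84), and Ezh1 at 99.03 CPM in the highest of 4 given 3x with it (ratio 0.83).

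The response to a mutein differed between the antibody arms, by a test of the interaction, for Uhrf1 with H16R (log2 0.67) and for Ezh1 with H16R (-0.18). With 3x it differed for Uhrf1 (0.70), Tet1 (-0.72), Dnmt3a (-0.35), Ezh2 (0.29), Dnmt1 (0.24) and Ezh1 (-0.23). The Dnmt1 call was lost with the length index as a covariate (0.20, edgeR adjusted p = 0.101).

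The Treg minus Tcon difference changed against PBS with H16R for Uhrf1 (-0.57), Tet2 (0.48) and Ezh1 (0.23). These 3 calls were lost with the length index as a covariate (-0.22, 0.17 and 0.10) and in 6, 4 and 8 of 32 fits with a library left out, and those of Uhrf1 and Tet2 also without the mouse block (edgeR adjusted p = 0.104 and 0.114). With 3x it changed for Tet2 (0.54), Ezh2 (0.51), Tet1 (-0.37) and Dnmt1 (0.26).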

How the results depend on the processing

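With DESeq2, 241 of 248 values of the 8 genes kept their direction and side of the threshold and 7 gained a call. Limma on log2 FPKM kept 227, total-count scaling 231, no CPM filter 239 and all biotypes 238. Reading empty cells as 0 moved none. With the replicate number as a replicate block, 179 of 184 were kept and 5 gained a call: Uhrf1 for H16R against PBS under block (adjusted p = 0.062), Ezh2 for H16R against WT IL-2 under isotype (0.066), Dnmt1 for 3x against H16R under isotype (0.094), the Ezh2 interaction with H16R (0.079) and Uhrf1 for block against isotype in Tcons (0.098). In fits of the groups compared alone, 121 of 128 were kept, 5 gained a call (the first 3 of these, with adjusted p = 0.0021, 0.05 and 0.088, and Tet1 for WT IL-2 against PBS under block, 0.064, and for 3x against WT IL-2 under isotype, 0.037) and 2 lost one under block against isotype (Ezh2 with PBS, 0.15, and Tet1 with H16R, 0.12). Without the 2 mice richest in B cell transcripts 2 gained a call (the first 2 of these) and 5 lost one (Ezh2 for block against isotype with PBS and for H16R against WT IL-2 under block, Tet2 for Treg against Tcon with WT IL-2, and Uhrf1 and Ezh1 for that difference with H16R against PBS). Without the mouse block 60 of 64 were kept. The length index as a covariate kept 200, moved 37 across the threshold and turned the sign of 11 in which either fit made a call. Tet2 went to 0.13 (3x, isotype), 0.11 (H16R, block) and 0.18 (3x, block) against PBS, and to 0.10 (H16R) and 0.18 (3x) against WT IL-2 under block. Tet3 went to 0.0075 (H16R) and 0.10 (3x) against WT IL-2 under block. In Tcons Dnmt1 went to -0.048 (H16R), Uhrf1 to -0.74 (3x), and for block against isotype Dnmt3a to 0.050 and Tet1 to 0.0083. With it the Tcon calls went from 11 to 3 (IL-2) and from 5 to 0 (block, edgeR).

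With each library left out, member calls ranged from 26 to 31 of 48 (30 in the full fit) for IL-2 against PBS, 9 to 13 of 32 (12) for block against isotype, 19 to 24 of 48 (21) between molecules, 8 to 12 of 24 (8) for interactions, 33 to 41 of 64 (37) for Treg against Tcon, 7 to 14 of 24 (11) for IL-2 in Tcons and 2 to 8 of 8 (5) for block in Tcons. The cause of these changes was not tested. Each Tcon group holds 2 libraries, and isotype PBS Tregs had totals of 18.28 to 34.58 M counts. The effect of depth on precision was not tested.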
